A study of Mus musculus with 8 samples.

Results

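The mitochondrial respiratory chain subunits described here are 37 genes that encode parts of complexes I to IV, measured on Affymetrix Mouse430_2 arrays of sorted mouse regulatory T cells. The members were chosen by name as subunit genes of these complexes: 21 of complex I (the Nduf genes), 4 of complex II (Sdh), 6 of complex III (the Uqcr genes and Cyc1) and 6 of complex IV (Cox). Ndufa4 stays in complex I here by its name, although its protein is now placed in complex IV. A probe set was counted when the deposited annotation gave it the identifier of 1 member and of no other gene. The 37 members had 75 such probe sets, of 37579 probe sets that name a single gene and 20665 genes in all. Complex I had 41 of them, complex II 9, complex III 9 and complex IV 16. Of the members, 16 had 1 probe set and 21 had several, up to 6.

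Regulatory T cells restrain immune responses and are marked by the transcription factor Foxp3. By the labels, the 8 arrays fall into 4 groups of 2: GFP-RFP+ cells from spleen, GFP-RFP+ cells from lymph nodes, GFP+RFP+ cells from spleen and GFP+RFP+ cells from lymph nodes. They call GFP-RFP+ cells peripherally induced and GFP+RFP+ cells thymically induced, and the series title refers to regulatory T cells of extrathymic and intrathymic origin. All cells were sorted as CD4+CD25+, from organs pooled over 20 untreated mice aged 14 to 17 weeks, and 50 ng of total RNA was labelled per array. The sources used here name neither the mouse strain nor the promoters of the fluorescent proteins. Because each group is 1 pooled sort read on 2 technical replicate arrays, the replicate arrays were averaged and each comparison rests on 4 samples, with the other organ or population as its only repeat.

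The array total of the deposited signal ran between 9675427 and 9963698 units over the GFP-RFP+ arrays, and between 8954499 and 9262886 over the GFP+RFP+ arrays. The median probe set had a signal of 25.0 to 27.0 units on every array. All 7 regulatory T cell markers examined had the detection call P (present) on all 8 arrays. Foxp3 had signals of 1003 and 905 units in GFP-RFP+ spleen and 992 and 1084 in GFP-RFP+ lymph nodes, against 1580 and 1427 in GFP+RFP+ spleen and 1386 and 1530 in GFP+RFP+ lymph nodes (log2 difference -0.57, limma adjusted p = 0.0188). Of the other 6 markers, Ctla4, an inhibitory receptor, rose by 1.44 on the log2 scale (adjusted p = 0.000834), and Il2ra, the CD25 chain used in the sort, fell by 0.83 (adjusted p = 0.0251). Ikzf2, Nrp1, Tnfrsf18 and Izumo1r did not pass. The small number of arrays and of pooled sorts behind them limits the precision of these values.

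The respiratory chain passes electrons from nutrients to oxygen and uses the energy to pump protons out of the mitochondrial matrix, and ATP synthase turns the proton gradient into ATP. Complex I takes electrons from NADH and complex II from succinate, both hand them to ubiquinone, complex III moves them on to cytochrome c, and complex IV passes them to oxygen. Regulatory T cells are known to draw on oxidative metabolism more than conventional effector T cells do, and in mice the loss of the complex III subunit Uqcrfs1 in regulatory T cells is known to impair their suppressive function. All 37 subunits are encoded in the nucleus, and their promoters often hold sites for the factors NRF1, GABPA (an ETS factor) and YY1.

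Promoter sequence of 27 of the 37 members was found in the RefSeq table of mouse build GRCm38.p6, which covers 250 bases before to 50 after the start of 27025 genes. The NRF1 motif (GCGC and TGCGC with any 1 base between them), searched on both strands as were the others, was in 6 of 27 member promoters (22.2%: Ndufa5, Ndufa6, Ndufa8, Sdha, Sdhd and Uqcrc1), against 5.19% of all promoters in the table. The ETS motif CCGGAAG was in 6 of 27 (22.2%: Cox8a, Ndufb7, Ndufs3, Ndufs8, Sdhb and Sdhd), against 9.93% of all, and the YY1 motif AAGATGGC was in 4 of 27 (14.8%: Ndufa9, Ndufb8, Ndufs4 and Ndufs7), against 3.19%. No motif lies within another, but 1 promoter can hold several: Sdhd held both the NRF1 and the ETS motif. A match is a description of the letters and not a measured binding site. The promoter stretches of 4 members whose signals are described below are shown 5′ to 3′ on the minus strand, with motif matches in capitals. Ndufa8 lies at chr2:36049339-36049458 and Sdhd at chr9:50603850-50603969, and both are among the members with the lowest spleen signal relative to lymph nodes. Sdha lies at chr13:74350241-74350360 and holds 3 NRF1 matches, and Cox8a lies at chr19:7217615-7217734 and holds 1 ETS match.
Ndufa8: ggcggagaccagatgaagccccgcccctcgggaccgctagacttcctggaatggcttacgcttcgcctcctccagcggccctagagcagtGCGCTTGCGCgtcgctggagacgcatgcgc
Sdha: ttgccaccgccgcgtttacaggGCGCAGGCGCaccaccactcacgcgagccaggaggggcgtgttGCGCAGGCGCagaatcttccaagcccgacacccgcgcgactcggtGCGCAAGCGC
Sdhd: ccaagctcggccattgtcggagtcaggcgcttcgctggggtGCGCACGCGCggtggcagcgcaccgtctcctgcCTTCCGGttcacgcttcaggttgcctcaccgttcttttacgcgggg
Cox8a: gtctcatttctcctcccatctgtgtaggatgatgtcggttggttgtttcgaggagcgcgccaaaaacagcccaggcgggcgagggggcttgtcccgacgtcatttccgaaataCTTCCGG

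The subunits were detected on nearly all arrays. Of the 75 member probe sets, 61 (81.3%) had the call P on 8 of 8 arrays, against 38.8% of all 45037 probe sets that are not controls. The call was P on 0 arrays for 3 member probe sets (4%), which belong to Ndufb9, Sdha and Cox5b, against 22.1% of all probe sets. By complex, 34 of 41 probe sets were called P on 8 arrays in complex I, 6 of 9 in complex II, 8 of 9 in complex III and 13 of 16 in complex IV. The calls were counted over the 8 arrays without regard to group, because the names of the call columns do not tell which array they belong to.

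For each gene, the probe set with the highest mean signal was taken as its lead. Levels are given as log2 of the signal plus 16 units. The median lead of complex I ranged over the 8 arrays between 9.82 and 10.01, with a median array at 9.95. That of complex II ranged between 9.55 and 9.74, that of complex III between 9.96 and 10.11, and that of complex IV between 11.12 and 11.26. The complexes cannot be ranked by amount from these values, because probe sets bind with different strength. For the leads, the highest of 8 arrays was 1.05 to 1.41 times the lowest, with a median ratio of 1.18. Some dimmer probe sets of the same genes varied more, such as 1 of Sdha (2.26 times) and 1 of Ndufs4 (2.19 times). Ndufa5, an accessory subunit of complex I, was the only member whose lead was not called P on all arrays (7 of 8). It had signals of 536 and 540 units in GFP-RFP+ spleen and 590.5 and 496 in GFP-RFP+ lymph nodes, against 562 and 565 in GFP+RFP+ spleen and 638 and 605 in GFP+RFP+ lymph nodes.

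**Figure D1:**
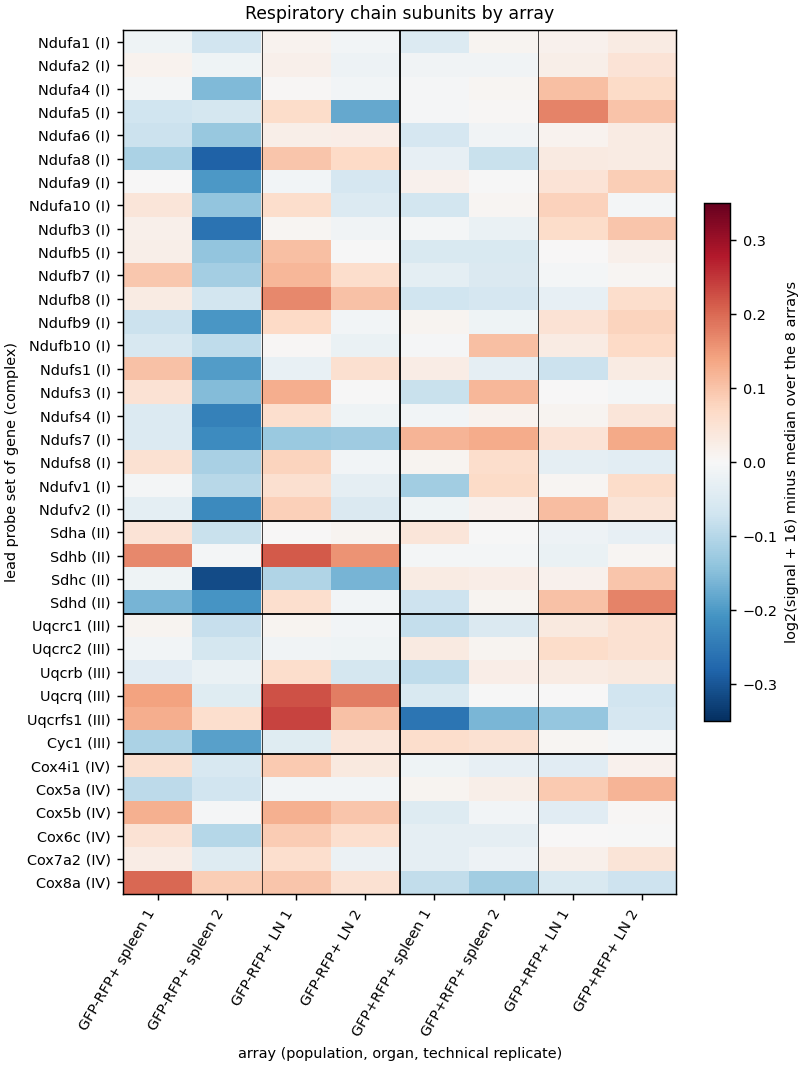
Lead probe set of each of the 37 subunit genes (rows, grouped by complex) on each of the 8 arrays (columns), coloured by its log2 deviation from its own median over the arrays. The second array of GFP-RFP+ spleen is the lowest of the 8 for 25 of 37 genes.

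The first comparison set GFP-RFP+ against GFP+RFP+ cells, with organ as a term in the fit. Leads of the respiratory chain subunits differed little between them: the highest was Uqcrfs1 of complex III, at 1.22 times, and the lowest Ndufs7 of complex I, at 0.848 times the GFP+RFP+ level. None of the 37 leads passed the adjusted p of 0.05 in limma, while 8.22% of all probe sets did (3700 of 45037, 5.97% higher and 2.24% lower in GFP-RFP+ cells). Among the 17476 probe sets called P on all arrays, to which 36 of the 37 leads belong, 15.1% passed. At an unadjusted p under 0.05, 2 leads passed (Uqcrfs1 and Ndufs7), against 23.4% of all probe sets.

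The lead differences, GFP-RFP+ minus GFP+RFP+, ran from -0.24 to 0.28 on the log2 scale. Of them 12 were positive and 25 negative, with a median of -0.022, against a median of 0.0065 over all probe sets and 0.035 over probe sets called P on all arrays. All 37 intervals at 95% lay between -0.45 and 0.49, which is a fold of 0.733 to 1.41. That range is the extreme over the 37 leads. The intervals hold no spread between repeat sorts or mice, so they do not bound the change a new sort would show. The negative median held under every scaling tried, but quantile normalization moved it to -0.12, with 5 of 37 positive. The split of all probe sets that passed also moved, to 59.7% higher under quantile normalization, against 72.7% higher on the deposited scale.

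**Figure D2:**
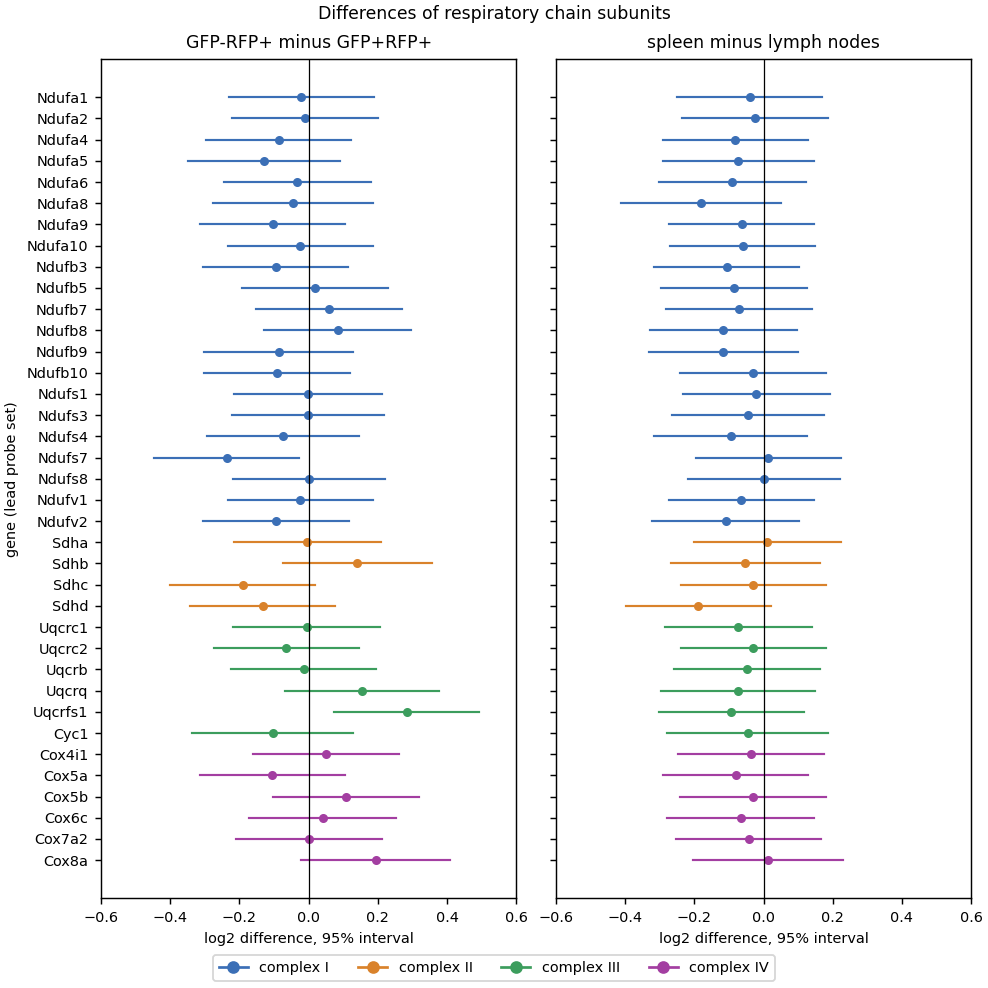
Log2 differences of the 37 lead probe sets (points) with 95% intervals from limma (lines), for GFP-RFP+ minus GFP+RFP+ on the left and for spleen minus lymph nodes on the right. Every interval in the left panel lies between -0.45 and 0.49, and 33 of 37 points in the right panel lie below 0.

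In complex I, 4 lead differences were positive and 17 negative, with a median of -0.033. Ndufs7, which carries the last iron-sulfur cluster before ubiquinone, had 844 and 747 units in GFP-RFP+ spleen and 795 and 799 in GFP-RFP+ lymph nodes, against 948 and 955 in GFP+RFP+ spleen and 902 and 958 in GFP+RFP+ lymph nodes. Every GFP-RFP+ array was below every GFP+RFP+ array. The difference was -0.24 ± 0.09 (SE) with an adjusted p of 0.169, and the other Ndufs7 probe set gave -0.08. Ndufs1, an iron-sulfur subunit of the arm that oxidises NADH, had a difference of -0.00 ± 0.09, and its 8 signals lay between 410 and 507 units. Ndufa1, a membrane accessory subunit, had signals between 2507 and 2679 units and a difference of -0.02.

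Complex II oxidises succinate and is also an enzyme of the tricarboxylic acid cycle. Its leads had a median of -0.07, with 1 positive and 3 negative. The membrane anchor subunit Sdhc had 244 and 195 units in GFP-RFP+ spleen and 228 and 218 in GFP-RFP+ lymph nodes, against 252 and 251 in GFP+RFP+ spleen and 249.5 and 265 in GFP+RFP+ lymph nodes. All GFP-RFP+ arrays were below all GFP+RFP+ arrays, and the difference of -0.19 ± 0.09 (SE) had an adjusted p of 0.252. It was -0.12 without the second GFP-RFP+ spleen array, on which Sdhc was lowest. The other anchor, Sdhd, differed by -0.13 on its lead and by 0.05 on its second probe set. The iron-sulfur subunit Sdhb pointed the other way, at 0.14 (adjusted p = 0.41), and the lead of the flavoprotein Sdha was at -0.00.

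Complex III held the lead with the largest population difference, Uqcrfs1, the Rieske iron-sulfur protein that takes electrons from ubiquinol. It had 1198 and 1141 units in GFP-RFP+ spleen and 1294 and 1176 in GFP-RFP+ lymph nodes, against 915 and 979 in GFP+RFP+ spleen and 996 and 1051 in GFP+RFP+ lymph nodes. All GFP-RFP+ arrays were above all GFP+RFP+ arrays. The difference was 0.28 ± 0.09 (SE), with a 95% interval of 0.07 to 0.49, and it did not pass over all probe sets (adjusted p = 0.113). It was 0.30 within spleen and 0.27 within lymph nodes. Uqcrfs1 passed under 5 of the other settings tried, with adjusted p between 0.00335 and 0.0464, and under quantile normalization it stood at 0.19 (adjusted p = 0.245). Uqcrq, a small subunit near the ubiquinol site, was at 0.15 (adjusted p = 0.379), with 837 to 1008 units on the GFP-RFP+ arrays and 823 to 863 on the GFP+RFP+ arrays, so the groups overlapped. The core subunit Uqcrc2 was at -0.07, the subunit Uqcrb at -0.01, and the cytochrome c1 gene Cyc1 at -0.10.

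Complex IV had 5 of 6 lead differences positive and a median of 0.045, which turned to -0.08, with 2 of 6 positive, under quantile normalization. Cox8a, a small membrane subunit, had 1607 and 1485 units in GFP-RFP+ spleen and 1497 and 1452 in GFP-RFP+ lymph nodes, against 1316 and 1282 in GFP+RFP+ spleen and 1345 and 1329 in GFP+RFP+ lymph nodes. All GFP-RFP+ arrays were above all GFP+RFP+ arrays, with a difference of 0.19 (adjusted p = 0.259). Its second probe set had 1510 and 1433 units in GFP-RFP+ spleen and 1481 and 1480 in GFP-RFP+ lymph nodes, against 1292 and 1294 in GFP+RFP+ spleen and 1298 and 1305 in GFP+RFP+ lymph nodes, a difference of 0.18. Cox5b was at 0.11 and Cox5a at -0.10 on their leads. The other Cox5a probe sets were at -0.12 and 0.07, so they differed in sign. Cox4i1, a nuclear-encoded subunit that binds next to the catalytic core, was at 0.05 with signals between 3040 and 3369 units, and at -0.11 under quantile normalization.

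**Figure D3:**
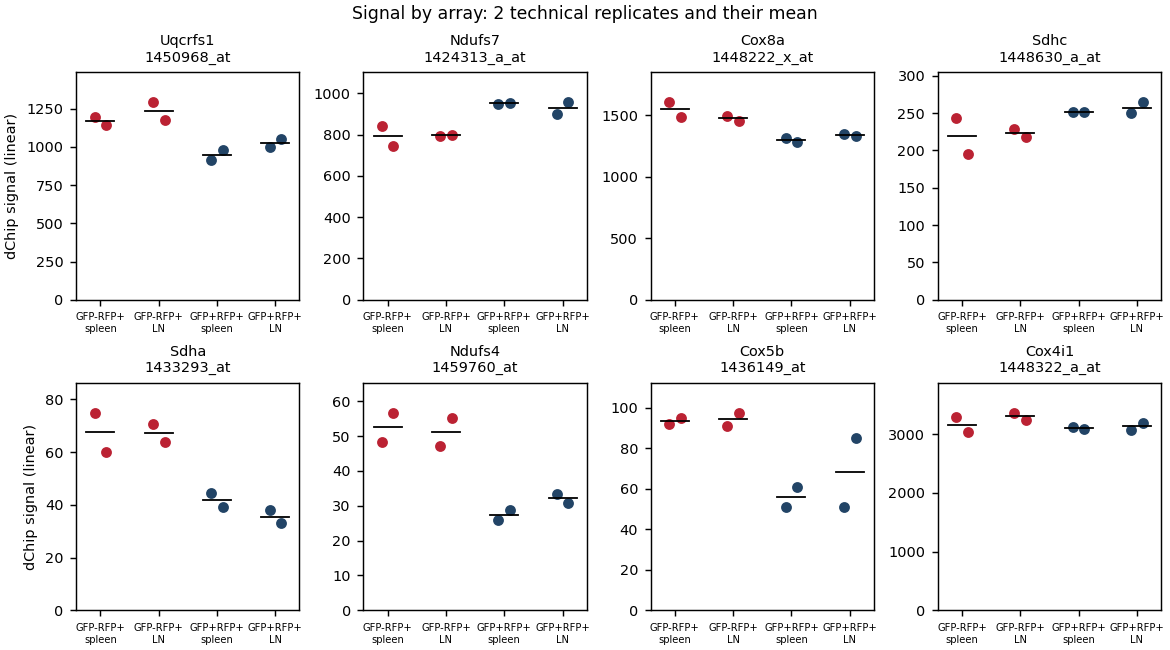
Signal of single subunits on each array (points) by group on a linear axis, with the mean of the 2 technical replicate arrays (bar). Uqcrfs1 and Cox8a are higher on every GFP-RFP+ array than on any GFP+RFP+ array, and Ndufs7 is lower.

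Counting sides in each organ separately, both GFP-RFP+ arrays were above both GFP+RFP+ arrays in spleen and in lymph nodes for 3 leads (8.11%: Uqcrfs1, Cox5b and Cox8a), against 15.5% of all probe sets. They were below in both organs for 8 leads (21.6%: Ndufa4, Ndufa5, Ndufb10, Ndufs7, Sdhc, Sdhd, Uqcrc2 and Cox5a), against 10.3% of all. Among probe sets called P on all arrays these shares were 28.9% above and 17.1% below.

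Among all 75 member probe sets, 3 passed the adjusted p of 0.05 (against 8.22% of all probe sets), and all 3 were higher in GFP-RFP+ cells. None of them is a lead, so by the choice of leads each is dimmer than the lead of its gene. A dim Sdha probe set, called P on 6 arrays, had 75.0 and 60.2 units in GFP-RFP+ spleen and 70.8 and 63.7 in GFP-RFP+ lymph nodes, against 44.5 and 39.1 in GFP+RFP+ spleen and 37.9 and 33.2 in GFP+RFP+ lymph nodes. It rose by 0.61 ± 0.09 (SE), a fold of 1.53, with an adjusted p of 0.0149, while the Sdha lead had 1155 to 1261 units on GFP-RFP+ arrays and 1196 to 1258 on GFP+RFP+ arrays. The same gene thus has a bright probe set that did not pass and a dim one that did.

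A dim Ndufs4 probe set, called P on 8 arrays, had 48.2 and 56.7 units in GFP-RFP+ spleen and 47.0 and 55.3 in GFP-RFP+ lymph nodes, against 25.9 and 28.7 in GFP+RFP+ spleen and 33.4 and 30.9 in GFP+RFP+ lymph nodes. It rose by 0.57 ± 0.09 (SE; adjusted p = 0.0195). Ndufs4 is an accessory subunit needed for a stable complex I, and its 4 probe sets disagreed in sign: the lead was at -0.07, and the others at 0.57, 0.31 (adjusted p = 0.113) and -0.19. A dim Cox5b probe set, called P on 6 arrays, had 92.2 and 94.8 units in GFP-RFP+ spleen and 90.8 and 97.6 in GFP-RFP+ lymph nodes, against 51.1 and 60.6 in GFP+RFP+ spleen and 50.9 and 85.2 in GFP+RFP+ lymph nodes. It rose by 0.52 (adjusted p = 0.0264), with 1 GFP+RFP+ lymph node array close to the GFP-RFP+ arrays. The Cox5b lead was at 0.11, and its other probe sets at 0.08, 0.08, 0.13 and -0.12, the last called P on 0 arrays. None of these passed. The count of 3 fell to 1 without replicate 2 of GFP-RFP+ spleen or of GFP-RFP+ lymph nodes, and Cox5b stood at 0.37 (adjusted p = 0.211) without replicate 1 of GFP+RFP+ lymph nodes. With 1 unit in place of 16 added before the log, none of the 3 passed, nor did any of the 45037 probe sets.

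The second comparison set spleen against lymph nodes, with population as a term. No member probe set passed, at the adjusted p or at an unadjusted p under 0.05, and the smallest adjusted p was 0.604. Of all probe sets, 0.619% passed (279, of which 258, or 0.573% of all, were higher in spleen), as did 0.492% of those called P on all arrays, and 8.91% of all had an unadjusted p under 0.05. Among the leads, 33 were lower in spleen by their estimate and 4 higher, with a median of -0.063, against 0.0065 over all probe sets and 0.0019 over probe sets called P on all arrays. Lead differences ran from -0.19 to 0.01, and the 95% intervals lay between -0.41 and 0.23.

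Sdhd had the lowest organ difference. It had 485 and 471 units in GFP-RFP+ spleen and 518 and 549 in GFP+RFP+ spleen, against 568 and 542 in GFP-RFP+ lymph nodes and 587 and 617 in GFP+RFP+ lymph nodes. In each population both spleen arrays were below both lymph node arrays, and the difference was -0.19 (adjusted p = 0.604). Ndufa8, an accessory complex I subunit, had 820.5 and 727 units in GFP-RFP+ spleen and 870 and 839 in GFP+RFP+ spleen, against 951 and 931 in GFP-RFP+ lymph nodes and 908 and 905 in GFP+RFP+ lymph nodes, a difference of -0.18. The complex I subunits Ndufb8 and Ndufb9 were both at -0.12, Ndufv2 and Ndufb3 at -0.11, and Ndufs4, Ndufa6 and Ndufb5 at -0.09, as was the complex III subunit Uqcrfs1, all with adjusted p above the threshold. Both spleen arrays were below both lymph node arrays in each population for 8 leads (21.6%: Ndufa1, Ndufa6, Ndufa8, Ndufb8, Ndufb9, Sdhd, Cox5a and Cox6c), against 5.02% of all probe sets and 8.15% of those called P on all arrays. They were above for 0 leads, against 6.79% of all probe sets.

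Some single arrays moved with this direction, and others did not. On the second technical replicate of GFP-RFP+ spleen, only 2 of 37 leads were above their own median over the arrays, the median deviation was -0.10, and 25 leads had their lowest value there. Within complex I, 0 of 21 leads were above their median on that array, with a median deviation of -0.14. On the first replicate of the same sort, 20 of 37 leads were above their median. Probe sets called P on all arrays had a median deviation of -0.014 on the second replicate and 0.044 on the first. They thus also differed between these arrays, by a median of -0.08 against -0.13 for the leads. On the second replicate, 34 of 37 leads were lower, as were 11654 of the 17476 probe sets called P on all arrays. Of those 17476, 46.0% were above their median on it and 4731 had their lowest value there. The first replicate of GFP-RFP+ lymph nodes was the highest array for 14 leads and had 30 of 37 above their median. Its second replicate had only 14 of 37 above, fewer than the first replicate of GFP-RFP+ spleen, with a median deviation of -0.0092. The second replicate of GFP+RFP+ lymph nodes was the highest for 11 leads and had 28 of 37 above.

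Without the second GFP-RFP+ spleen array, the median organ difference of the leads was -0.028, with 8 of 37 positive, and the median population difference was -0.0021, with 17 of 37 positive. Both medians kept their sign at a smaller size. Among the named complex I leads, the organ difference without that array was -0.04 for Ndufb3, -0.06 for Ndufv2, and -0.05 for Ndufs4 and for Ndufb5. That of Uqcrfs1 was -0.06 without the first replicate of GFP-RFP+ lymph nodes.

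**Figure D4:**
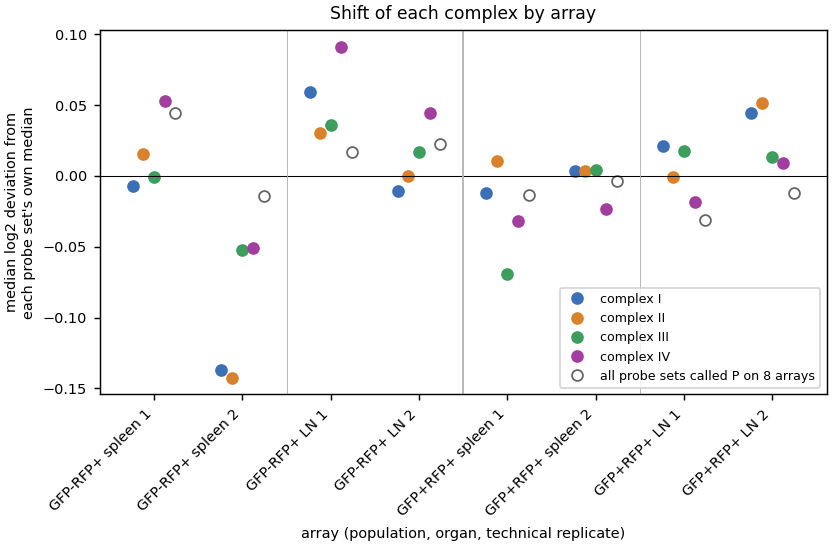
Median log2 deviation of the lead probe sets of each complex, and of all probe sets called P on 8 arrays (open circles), from their own median over the arrays. The second array of GFP-RFP+ spleen lies lowest for complexes I and II, at about -0.14, and for complex IV, at -0.05. For complex III the first array of GFP+RFP+ spleen lies lowest, at -0.07. LN stands for lymph nodes.

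Markers of other cells also moved with organ and, in fewer genes, with population. Of 5 myeloid markers, 4 rose in spleen, against 0.573% of all probe sets that rose. Among them were Csf1r by 4.25, Adgre1 by 3.05 and Lyz2 by 1.94 on the log2 scale. The summed signal of the 5 ran between 1218 and 1793 units in GFP-RFP+ spleen and between 986 and 1288 in GFP+RFP+ spleen, against 118 to 132 in GFP-RFP+ lymph nodes and 110 to 119 in GFP+RFP+ lymph nodes, and none of the 5 was called P on 0 arrays. The plasma cell gene Jchain (5.57), the erythroid gene Alas2 (3.88) and the B cell gene Ms4a1 (2.53) were the members of their lists that passed, out of 3, 3 and 4. Sdc1, Hba-a1 and Pax5 of the same lists were called P on 0 arrays, as was Klrb1c of the natural killer list. Between the populations, 1 of the 4 B cell markers passed, Cd79b, which fell by 0.54 (adjusted p = 0.042), against 2.24% of all probe sets that fell. The summed B cell signal ran between 372 and 553 units in GFP-RFP+ spleen and between 140.0 and 148 in GFP-RFP+ lymph nodes, against 342 to 511 in GFP+RFP+ spleen and 214 to 215 in GFP+RFP+ lymph nodes. Of 4 T cell markers, Cd4 rose by 0.46 (adjusted p = 0.0297), against 5.97% of all probe sets that rose, and all 4 differences were positive. None of the CD8 T cell, myeloid, natural killer, erythroid, plasma cell and dendritic markers passed between the populations, against 8.22% of all probe sets. Within spleen, some sums still did not overlap. The erythroid sum was 413 to 475 units in GFP-RFP+ and 177 to 313 in GFP+RFP+ cells. The plasma cell sum was 3498 to 3632 against 2126 to 2768, and the dendritic sum 97.4 to 106 against 64.9 to 72.5. Lower in GFP-RFP+ spleen were the CD8 T cell sum (135 to 140 against 145 to 150) and the natural killer sum. The latter was 42.5 to 47.7 against 52.7 to 54.5. The part of other cells in the values of the subunits was not tested. In such bulk samples, fewer cells of a type and less RNA per cell cannot be told apart.

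Genes that work with the subunits were read from further lists, again as GFP-RFP+ minus GFP+RFP+. Other subunits of complex I (16 of 17 genes with a probe set), complex III (3) and complex IV (8 of 10) had 0 genes that passed in either direction, with medians of -0.11, -0.13 and -0.01. Ndufc1 was at -0.22, Ndufs5 at -0.16, Uqcr11 at -0.23, Uqcrh at -0.13, and Cox6a1 at 0.21. Cox8b was at -0.22 but was called P on 0 arrays. Cytochrome c (Cycs), the electron carrier between complexes III and IV, was at -0.23 and did not pass. ATP synthase subunits (14 of 15) had 0 that passed and a median of -0.02, with Atp5j2 at -0.14 and Atp5l at 0.13. Thus none of the 42 genes with a probe set in these lists passed, against 8.22% of all probe sets.

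Among 29 assembly factors, proteins that build the complexes but are not part of them, 1 rose and 1 fell, against 5.97% higher and 2.24% lower over all probe sets. Ttc19, a complex III factor, had 294 and 324 units in GFP-RFP+ spleen and 275 and 279 in GFP-RFP+ lymph nodes, against 200.4 and 196 in GFP+RFP+ spleen and 166 and 187 in GFP+RFP+ lymph nodes. It rose by 0.60 (adjusted p = 0.0124) with no overlap between the populations. Tmem126b, a complex I factor, had 31.9 and 30.2 units in GFP-RFP+ spleen and 34.3 and 34.4 in GFP-RFP+ lymph nodes, against 62.6 and 47.2 in GFP+RFP+ spleen and 47.8 and 46.7 in GFP+RFP+ lymph nodes. It fell by 0.46 (adjusted p = 0.0461).

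Of 16 genes of mitochondrial gene expression and biogenesis, 1 rose: Polg2, the accessory subunit of the mitochondrial DNA polymerase, by 0.49 (adjusted p = 0.0236), against 5.97% of all probe sets that rose. The median of that list was -0.12, and Pprc1, a coactivator, was at -0.31. In the 3 lists that follow no gene passed, against 8.22% of all probe sets. None of 16 tricarboxylic acid cycle genes passed (median -0.01), with Idh3a at 0.27 and Suclg2 at -0.26. None of 5 uncoupling and antioxidant genes passed, and Sod2, the superoxide dismutase of the matrix, was at 0.37 (adjusted p = 0.057) while the peroxiredoxin Prdx3 was at -0.19. None of 20 mitochondrial ribosome genes passed, with a median of -0.14, Mrpl44 at -0.36 (adjusted p = 0.0606) and Mrps18b at -0.30. Between organs, 0 genes passed in every one of these pathway lists, against 0.619% of all probe sets. The lower spleen estimates were not particular to the leads. Organ medians were -0.08 for other complex I (3 of 16 positive) and -0.11 for other complex III (0 of 3). ATP synthase was at -0.07 (2 of 14) and the mitochondrial ribosome at -0.08 (0 of 20). Other complex IV, cytochrome c, assembly factors and the tricarboxylic acid cycle lay between -0.05 and -0.02. Gene expression and biogenesis (0.01) and uncoupling and antioxidant genes (0.02) were above 0.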

How the data were processed

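The measurements were 8 one-colour Affymetrix Mouse430_2 arrays. The deposited intensity values are dChip model-based signals on a linear scale, made against a baseline array without log transformation, per the file headers. The submitters' processing notes name RMA instead. The values used carry the sample labels, and each of the 8 labelled columns equals 1 signal column of the authors' dChip table on all 45101 probe sets. The 8 signal columns of that table carry no sample label and served only for this comparison. Detection calls are the authors' own, and how they were made is not given in the sources used here.

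From these, log2(signal + 16) was computed, the 2 technical replicates of a group were averaged, and limma 3.58.1 (R 4.3.3) was fitted to the 4 samples with population and organ as terms, which leaves 1 residual degree of freedom, over 45037 probe sets without the 64 controls. P-values were adjusted by Benjamini-Hochberg over all of them. With 1 pooled sort per group, no spread between repeat sorts or between mice was measured. In the main fit the p-values rest on how far each difference varied between the organs or populations, moderated over all probe sets. The script was tested on simulated data. The subunits and the gene lists were chosen with earlier results of these data known. Named were the 10 leads with the largest difference in each comparison, members that passed, members with the highest or lowest mean lead signal of their complex, leads not called P on every array, genes whose probe sets disagree in sign by over 0.5 log2, Foxp3, and the 2 genes of each further list with the largest population difference. Cyc1 was named outside these rules, and other names that stand in counts were chosen after their values were seen. Alternatives changed the offset, the scaling, the filter on calls, the replicate averaging, the terms, the prior and the arrays included.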

Additional observations from a re-analysis of the deposited data

Results flagged for a closer look

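The lead probe set of Ndufa8 lay on opposite sides in the organs. Its GFP-RFP+ minus GFP+RFP+ difference was -0.14 in spleen, where both GFP-RFP+ arrays were below both GFP+RFP+ arrays, and 0.0535 in lymph nodes, where both were above. The difference between the organs was not tested. Ndufa8 was the only 1 of the 37 leads with such a crossing (2.70%). The share was 3.88% of all probe sets and 2.63% of those called P on all arrays, so the count is near the background.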

How the results depend on the processing

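Probe sets that passed between populations numbered 3700, and 6516 with the 8 arrays as separate samples, 2129 with population as the only term, 5670 among probe sets called P on at least 4 arrays, 5975 with 64 units added before the log, 6718 with a trended robust prior, and 0 with 1 unit added (7714 at an unadjusted p under 0.05). Member probe sets that passed numbered 3, and 5, 2, 5, 5, 7 and 0 under the same settings. Leaving out 1 array gave 1894 (without replicate 2 of GFP-RFP+ spleen) to 2893 probe sets and 1 to 3 member probe sets. It gave a median lead difference of -0.048 to -0.0021, and quantile normalization gave -0.12. Between organs, 279 probe sets passed, and 565 with separate arrays, 66 with organ alone, 750 with the trended prior, 0 with 1 unit added (3649 unadjusted), and 114 (again without replicate 2 of GFP-RFP+ spleen) to 309 with 1 array left out. No member probe set passed between organs under any of these settings. The median organ difference of the leads stayed between -0.096 and -0.028. Same-numbered arrays had deviations that correlated between -0.10 and 0.15, and the main fit did not pair them by number. These low correlations cannot show whether same-numbered arrays shared a processing order. With the replicate number as a block, 6082 probe sets passed between populations, 445 between organs, and 4 and 0 member probe sets. Taking the mean of all probe sets of a gene in place of the lead moved the level of complex I to 9.76, of complex II to 8.37 and of complex IV to 11.01. Among named members, 4 differences changed sign, and none of them had passed: Cox4i1 stood at -0.11 under quantile normalization (0.05 on the deposited scale), and with 1 array left out, Ndufs1 lay between -0.0765 and 0.0724, the Sdha lead between -0.0347 and 0.0279, and Uqcrb between -0.0458 and 0.0165 between populations, where these 3 were negative with all arrays. Ndufs7 passed under 3 settings and Cox8a under 1. The Ndufs4 probe set that rose did not pass under 3 settings, that of Cox5b under 5 and that of Sdha under 1. The cause of these shifts was not tested.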
